A study of Homo sapiens with 16 samples.

Results

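The genes for the cytosolic ribosomal proteins were examined in ChIP-seq peak lists for 3 NF-κB subunits in T47D cells, an established ER+ luminal A breast cancer line. Members were the protein-coding genes whose symbol is RPL or RPS with a number and, for some, a suffix letter A, L, X or Y, together with RPLP0, RPLP1, RPLP2, RPSA and FAU. This gave 83 of the 20033 protein-coding genes on the numbered and sex chromosomes. They comprised 43 large subunit genes, 32 small subunit genes, 3 genes of the stalk and 5 paralogues (RPL3L, RPL10L, RPL39L, RPL36AL and RPS27L). Each gene was taken as its RefSeq GRCh38 span with 1 kb added on both sides. The start site was known for 66 members.

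One set of cells carried a stable lentiviral shRNA knockdown of DAB2IP, a RasGAP that restrains Ras and NF-κB signaling, and the other served as control. For its control cells the paper names an empty vector in the methods and a scrambled or control shRNA elsewhere. Both sets of cells were selected with puromycin from the same line, and no other agent is named for either. Which shRNA clone was used for ChIP-seq is not given in the sources used here. Cells were fixed with disuccinimidyl glutarate and formaldehyde, which also retains proteins held to DNA through partners. Chromatin was precipitated with antibodies to RELA (p65), RELB or NFKB2, with 2 libraries per group, 6 groups and 12 libraries. The 3 libraries of a condition that share a replicate number are called a preparation here. The labels do not say whether replicates came from separate cultures, so each test below measures the spread between libraries only.

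Ribosomal protein genes are among the most heavily transcribed genes of a growing cell. Most have a compact G+C-rich promoter without a TATA box, and transcription starts within a tract of C and T bases. This tract becomes the terminal oligopyrimidine (TOP) motif of the mRNA, through which mTOR signaling controls its translation. In ChIP-seq, open promoters of this kind can be recovered whatever the antibody, which made them a useful set in which to ask whether short and very active promoters were called. NF-κB dimers bind DNA at κB elements, with RELA as the main activator of the canonical arm and RELB with processed NFKB2 as that of the noncanonical arm.

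The start sites are shown for RPLP1 and RPS10, called at the promoter in the most libraries, and for all 7 members with no promoter peak, to make plain what these promoters look like. RPLP0 is added as the stalk's base, RPS3 as a described partner of RELA and RPL10L as the shortest member. Each line spans 25 bases before and 20 bases from the start site onward, 5′ to 3′ on the gene's own strand, from RefSeq (GRCh38.p14). Capitals mark the tract of C and T bases nearest the start site.
RPLP1, chr15:69452793-69452837, plus strand: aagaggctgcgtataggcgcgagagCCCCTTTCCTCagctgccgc
RPS10, chr6:34426050-34426094, minus strand: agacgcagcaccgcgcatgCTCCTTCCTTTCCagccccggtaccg
RPLP0, chr12:120201092-120201136, minus strand: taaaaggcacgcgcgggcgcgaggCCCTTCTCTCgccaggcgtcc
RPS3, chr11:75399493-75399537, plus strand: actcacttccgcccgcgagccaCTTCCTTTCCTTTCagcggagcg
FAU, chr11:65122115-65122159, minus strand: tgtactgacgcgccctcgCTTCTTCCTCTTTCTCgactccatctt
RPL7A, chr9:133348193-133348237, plus strand: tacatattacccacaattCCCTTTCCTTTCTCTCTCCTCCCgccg
RPS18, chr6:33272050-33272094, plus strand: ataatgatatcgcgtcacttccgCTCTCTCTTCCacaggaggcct
RPS25, chr11:119018324-119018368, minus strand: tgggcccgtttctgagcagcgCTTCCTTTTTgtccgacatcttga
RPL4, chr15:66504836-66504880, minus strand: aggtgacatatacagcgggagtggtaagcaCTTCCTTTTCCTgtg
RPS28, chr19:8321471-8321515, plus strand: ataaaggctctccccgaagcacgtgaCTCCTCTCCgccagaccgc
RPS27L, chr15:63157458-63157502, minus strand: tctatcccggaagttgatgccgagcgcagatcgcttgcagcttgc
RPL10L, chr14:46651762-46651806, minus strand: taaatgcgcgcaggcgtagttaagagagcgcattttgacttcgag
RPLP1, RPS10 and RPLP0 had peaks within 1 kb of these starts in 10, 8 and 6 libraries, RPS3 in 3, and FAU, RPL7A, RPS18, RPS25, RPL4, RPS28 and RPS27L in 0. RPL10L, an intron-poor copy of RPL10 used mainly in the testis, had no such tract and had promoter peaks in 6 libraries. The tract covered the start site in RPLP1 and in 4 of the 7 members with no promoter peak (FAU, RPL7A, RPS18 and RPS25). In RPL4 and RPS28 it began 6 and 2 bases into the transcript, counted from 1 at the start site, and RPS27L had none.

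The start site itself was a C followed by at least 4 pyrimidines in 43 of the 66 members (65.2%), whether or not the tract reached further upstream, against 4.60% of all 15841 promoters with a start site. A tract of this kind lay within 25 bases of the start site in 61 members (92.4%) and in 53.9% of all promoters. The members without one were RPL6, RPL10L, RPL15, RPS4X and RPS27L. In the promoter window, from 250 bases before to 50 bases after the start site, median G+C was 59.7% in members and 62.7% overall. The ratio of observed to expected CpG had a median of 0.905 in members and 0.763 overall. Members with the tract at the start site had promoter peaks in 3.30 ± 2.18 libraries (SD over 43 genes), the other members in 2.70 ± 1.55 (23 genes), and all promoters with it in a mean of 3.03 libraries.

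The κB consensus, searched by its name on both strands, was found in that window in 3 of the 66 members with a known start site (4.55%). It was found in 12.3% of all promoters, and members without a known start site were not searched. All 3 are shown with 15 bases on both sides and the κB match in capitals (RefSeq, GRCh38.p14). RPS19, a small subunit protein whose gene is mutated in Diamond-Blackfan anemia, falls under the naming rule, while RPL35 and RPL36A are shown because they hold the match.
RPL35, chr9:124862012-124862051, minus strand: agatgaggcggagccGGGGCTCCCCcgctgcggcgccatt
RPL36A, chrX:101390959-101390998, plus strand: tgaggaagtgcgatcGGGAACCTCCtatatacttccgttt
RPS19, chr19:41860224-41860263, plus strand: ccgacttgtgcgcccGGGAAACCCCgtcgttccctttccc
The match began 79 bases before the start site of RPL35, 37 before that of RPL36A and 16 before that of RPS19. Each was covered by a peak in 1 library, a different one each time: control RELA replicate 1 for RPL35, control NFKB2 replicate 1 for RPL36A and control NFKB2 replicate 2 for RPS19. Over all promoters, those with the κB consensus had a peak within 250 bp of the start site in 9.60% ± 4.10 of cases (SD, n = 12 libraries) and those without it in 10.1% ± 4.08. The difference per library was −0.513 ± 0.751 points.

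Other promoter letters differed in frequency. CCGGAAGT, an ETS-type element searched on both strands, was in 10 members (15.2% against 6.18% of all promoters). AAGATGGC, the core of the YY1 element on both strands, was in 7 (10.6% against 3.91%). TATAAA on the gene's strand was in 3 members (RPL10L, RPLP0 and RPS28), or 4.55% against 6.91%. These matches describe the sequences and were not tested as binding sites.

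The lists held between 75078 and 708764 intervals, and 10 of the 12 held at least 517650. Knockdown RELA replicate 1 (105534 intervals) and knockdown RELB replicate 1 (75078 intervals) stood apart as short lists, and both belong to the same preparation. Every list reached down to an unadjusted p of 0.05. Read totals were not used here, so depth is known only through the fragments at each summit, which the fold enrichment and the p-value allowed to be recovered. The peak lists hold no measure of DAB2IP itself, so the knockdown could not be checked in them.

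Whole-gene peaks came first. In the RELA libraries, 15 members (18.1%) had a peak in knockdown replicate 1, 57 (68.7%) in knockdown replicate 2, 50 (60.2%) in control replicate 1 and 48 (57.8%) in control replicate 2. Among all protein-coding genes the shares were 54.4%, 85.3%, 81.2% and 84.2%. In the RELB libraries the members numbered 18 (21.7%) and 44 (53.01%) in knockdown and 52 (62.7%) and 47 (56.6%) in control. The shares of all genes were 49.4%, 78.2%, 83.6% and 80.4%. In the NFKB2 libraries there were 55 (66.3%) and 52 (62.7%) in knockdown and 58 (69.9%) and 53 (63.9%) in control, against 84.3%, 82.9%, 85.5% and 81.1% of all genes. Ribosomal protein genes were thus below the average gene in every library, and the 2 short lists were lowest for both.

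The members are short, with a median span of 5011 bp (772 to 27723 bp) against 24130 bp for all genes. Each was therefore set against the 200 non-member genes nearest to it in length. In knockdown RELA replicates 1 and 2 the genes of like length had a peak in 19.2% and 63.2% of cases, and in control in 53.5% and 61.5%. For RELB the values were 16.3% and 47.7% in knockdown and 59.2% and 52.8% in control. For NFKB2 they were 61.9% and 59.1% in knockdown and 64.8% and 55.4% in control. Members lay above them in 10 of 12 libraries. The mean share was 55.1% ± 17.2 (SD, n = 12 libraries) for members and 51.2% for genes of like length, a difference per library of 3.89 ± 3.30 points. It ran from −3.67 points in control RELA replicate 2 to 8.48 points in control NFKB2 replicate 2. Once length was matched, the shortfall in the share called therefore became a small excess, of about the size of its spread between libraries. This excess was 1.60 points with no flank, 1.94 with a flank of 5 kb and 1.44 for peaks with a p of at most 0.001. Peaks per kb were lower at members than at all genes, by a mean ratio of 0.819 (0.660 to 1.18 by library). That ratio was not matched for length. Another coding gene lies in the window of 38 members (45.8%), and peaks were not divided between neighbours.

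**Figure D1:**
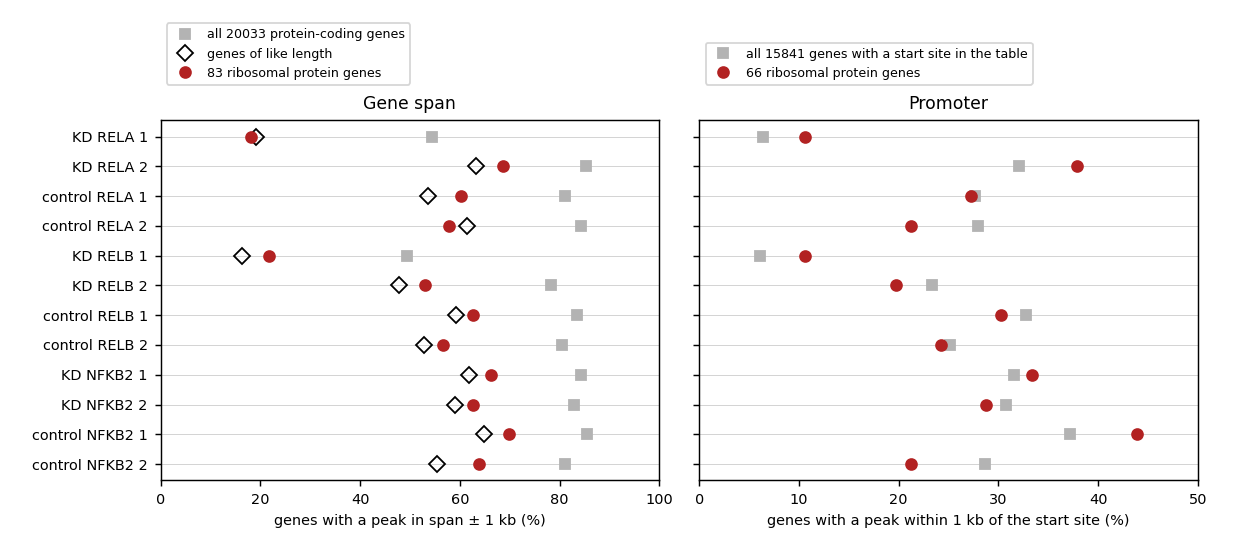
Share of genes with a peak (x axis, %) in each library (rows; KD, DAB2IP knockdown; number, replicate), for the gene span with 1 kb (left) and within 1 kb of the start site (right). Circles are ribosomal protein genes, diamonds genes of like length and squares all genes. Circles lie left of the squares in every row on the left and close to the diamonds, with 10 of 12 above them, while on the right 5 of 12 circles lie above the squares and 7 below.

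At the promoters, the window of 1 kb on both sides of the start site has one length for all genes. In the RELA libraries 7 of 66 members (10.6%) and 25 (37.9%) had a promoter peak in knockdown, and 18 (27.3%) and 14 (21.2%) in control. All promoters reached 6.44%, 32%, 27.6% and 27.9%. In the RELB libraries there were 7 (10.6%) and 13 (19.7%) in knockdown and 20 (30.3%) and 16 (24.2%) in control, against 6.1%, 23.4%, 32.7% and 25.2%. In the NFKB2 libraries there were 22 (33.3%) and 19 (28.8%) in knockdown and 29 (43.9%) and 14 (21.2%) in control, against 31.6%, 30.7%, 37.1% and 28.7%. The members averaged 25.8% ± 10.0 and all promoters 25.8% ± 9.81 (SD, n = 12). The difference per library was −0.0315 ± 4.73 points, with members above in 5 libraries and below in 7. Within 250 bp of the start site the members averaged 10.2% and all promoters 10.0%, a difference of 0.180 ± 4.22 points. Promoters of ribosomal protein genes were called about as often as other promoters.

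Summits were then placed by distance. Within 500 bp of a member's start site there were 115 summits, or 0.145 per gene, kb and library, against 575 summits and 0.121 at 2000 to 5000 bp away, a ratio of 1.20. For all genes with a start site the densities were 0.138 and 0.141, a ratio of 0.9798. Olfactory receptor genes served as a set of short genes taken to be inactive in breast cells, which was not checked here. Their densities were 0.174 and 0.172, a ratio of 1.01. The member ratio rests on few summits and was not tested.

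**Figure D2:**
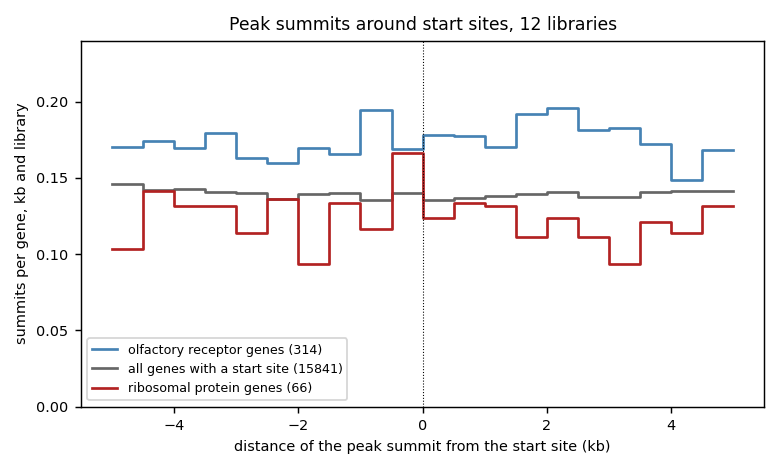
Peak summits per gene, kb and library (y axis) in bins of 500 bp by distance from the start site (x axis, kb), summed over the 12 libraries, for 66 ribosomal protein genes, 314 olfactory receptor genes and all 15841 genes with a start site. The line for all genes is flat across the start site, that for ribosomal protein genes varies from bin to bin and has its highest bin just before the start site, and that for olfactory receptor genes lies above both throughout.

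Against 4 other gene sets, ribosomal protein genes had the second highest mean difference from genes of like length. It was below that of the olfactory receptor genes and above those of the 3 related sets. The 77 mitochondrial ribosomal protein genes differed from genes of like length by −1.01 ± 3.71 points (above in 7 of 12 libraries). The 35 translation factor genes differed by −4.42 ± 6.97 points (above in 2) and the 18 ribosome biogenesis genes by −3.53 ± 9.59 points (above in 7). The 392 olfactory receptor genes differed by 9.62 ± 5.15 points and lay above in 12 of 12. At promoters, the mean difference from all genes was −4.65 ± 4.91 points for the mitochondrial set, −3.26 ± 5.85 for translation factors, −0.789 ± 10.4 for biogenesis genes and 5.87 ± 5.51 for olfactory receptor genes. The excess over genes of like length was thus larger for the olfactory receptor genes than for the ribosomal protein genes. Differences between the sets were not tested.

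**Figure D3:**
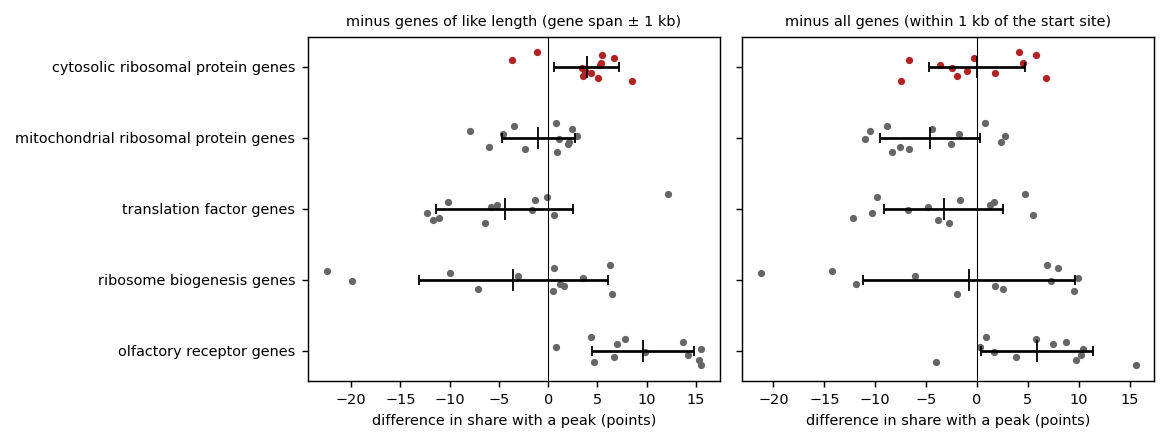
Difference in the share of genes with a peak (x axis, percentage points) for 5 gene sets, against genes of like length over the gene span (left) and against all genes at the promoter (right). Points are the 12 libraries, and bars give the mean ± SD. Ribosomal protein genes center at 3.89 points on the left and at −0.0315 points on the right, and olfactory receptor genes at 9.62 and 5.87 points.

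The peaks at members were weak, like those of the lists at large. There were 1135 over the 12 libraries, and 0 passed a q limit of 0.05. Among all 20033 genes, only 2 to 21 per library held a peak that passed it. At members −log10 q did not exceed 0.778, against the 1.301 that a q of 0.05 needs. A p of at most 0.001 was reached by 135 member peaks (11.9%), against 12.1% of all listed peaks. The median fold enrichment at members, by library, ran from 2.15 to 2.96, and that of whole lists from 2.16 to 2.65, with members lower in 8 libraries, higher in 3 and equal in 1. By library, the median was 3 to 5 fragments at member summits and 3 to 4 over whole lists. At members, 43.4% of the peaks rested on 3 or fewer. Of the 1135, 17 had 8 or more, and neither count was made over whole lists. The local background under member peaks had a higher median than in the whole list in 12 of 12 libraries, by 1.04 to 1.47 times.

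The strongest peak at a member lay at RPL8, a large subunit gene named here after its values were seen. It had 12 fragments, a fold enrichment of 4.40 and a −log10 p of 6.79 in control RELB replicate 2. The same place was called in knockdown RELA replicate 2 with 11 fragments. The next was at RPS19 in knockdown RELB replicate 2 (8 fragments, −log10 p 6.06, 10975 bp after the start site). RPS9, a protein of the small subunit body, had a peak of 3 fragments in control RELA replicate 2 that reached a −log10 p of 5.998, 290 bp after its start site, on a background of 0.0711 fragments. RPS24 had 11 fragments in knockdown RELB replicate 2 (−log10 p 5.70). The RPS19 and RPS24 summits lay far inside the gene, 10975 and 18001 bp from the start site. No start site was known for RPL8, so its peak has no distance here and the gene is in no promoter count. The RPL8 summit in control RELB replicate 2 was at chr8:144791866, in a gene spanning chr8:144789769-144792390.

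Across the 12 libraries, 79 members had a peak in at least 1. The median was 7 libraries (all genes 11), and 53 members exceeded the mean of their genes of like length while 30 fell short of it. That count was not made for other genes, so it cannot be read as particular to members. The mean was 6.61 libraries for members and 6.15 for genes of like length. Across members the number of libraries followed the span, with a Spearman rho of 0.579 (n = 83 genes), and across all genes rho was 0.843 (n = 20033). Genes share the libraries, so these values describe the lists. Large subunit genes had a peak in 6.56 libraries on average (like length 6.25), small subunit genes in 6.41 (6.02), the 3 stalk genes in 7.67 (5.02) and the 5 paralogues in 7.80 (6.76). The stalk mean rested mostly on RPLP1 (12, like length 4.83), with RPLP0 at 6 (5.655) and RPLP2 at 5 (4.58). The paralogue mean rested mostly on RPL10L (9, like length 3.76). RPL3L had 9 (8.235) and RPS27L 8 (7.525), while RPL39L with 9 (9.695) and RPL36AL with 4 (4.61) lay below like length. No peak in any library was the case for 4 members (4.82%), against 5.89% of genes of like length. A peak in all 12 was the case for 1 member (1.20%), against 1.80%.

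**Figure D4:**
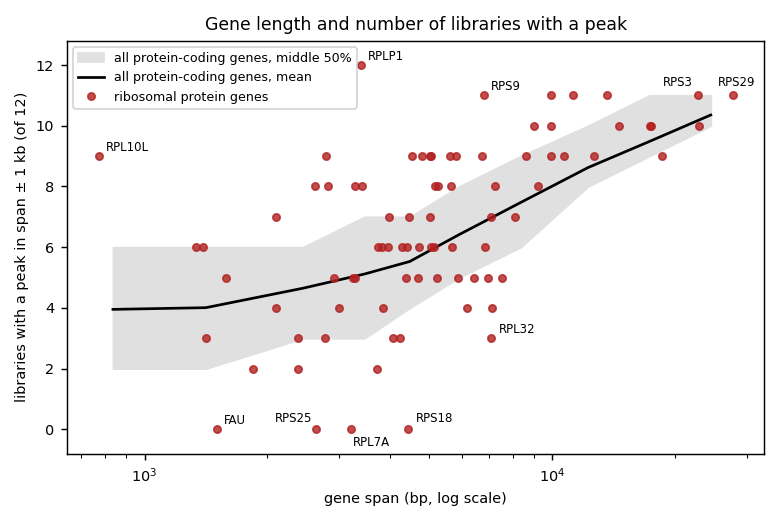
Number of libraries with a peak (y axis, of 12) against gene span (x axis, bp, log scale) for the 83 ribosomal protein genes (points). The line is the mean of all protein-coding genes in bins of span and the shaded band their middle 50%. RPLP1 at 12 and RPL10L at 9 lie above the band, and FAU, RPL7A, RPS18 and RPS25 lie at 0 below it.

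The stalk of the large subunit, where translation factors dock, is built by RPLP0 with RPLP1 and RPLP2. RPLP1 (chr15:69452818-69456205, plus strand, 3388 bp) was the member found in all 12 libraries, where its genes of like length averaged 4.83. For RELA it had 1 and 2 peaks in knockdown and 3 and 1 in control. For RELB it had 2 and 1 in knockdown and 2 and 1 in control, and for NFKB2 2 and 1 in knockdown and 1 and 1 in control. Counts overlapped between the conditions for every antibody. Its 18 peaks were weak, with at most 5 fragments and a highest −log10 p of 2.39. Overlapping peaks formed a region at chr15:69452617-69453402 in 6 libraries, whose middle lay 191.5 bp after the start site shown above. The remaining peaks lay elsewhere in the window.

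RPLP0 (chr12:120196699-120201111, minus strand) had 1 and 0 peaks for RELA in knockdown and 0 and 2 in control, 0 and 1 against 0 and 0 for RELB, and 1 and 0 against 1 and 1 for NFKB2. It was called in 3 knockdown and 3 control libraries, in 6 of them within 1 kb of its start. RPLP2 (chr11:809967-812876, plus strand) had 0 peaks in all 6 knockdown libraries. Control gave 1 and 0 peaks with the RELA antibody, 1 and 2 with RELB and 1 and 1 with NFKB2, so 5 of 6 libraries were called. Its strongest peak, in control NFKB2 replicate 2, had 5 fragments and a −log10 p of 3.94, 2250 bp after the start site, and PIDD1 also lies in its window.

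RPSA, a small subunit protein also known as the laminin receptor, had 1 and 4 peaks in knockdown and 3 and 0 in control for RELA. It had 0 and 3 against 1 and 2 for RELB, and 3 and 0 against 1 and 2 for NFKB2. The replicates of RPSA differed by 3 peaks within the knockdown group of each antibody, more than the conditions did. RPS3, a small subunit protein at the mRNA entry that has also been described as a partner of RELA, spans 22785 bp. It had 2 and 5 peaks against 5 and 4 for RELA, 1 and 2 against 3 and 0 for RELB, and 5 and 1 against 2 and 4 for NFKB2. It was called in 11 libraries, where its genes of like length averaged 10.2, and in 3 libraries at its promoter.

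RPL5 and RPL11 travel to the ribosome as one particle and bind MDM2 when assembly is disturbed. RPL5 had 1 and 2 peaks in knockdown and 3 and 6 in control for RELA, 0 and 3 against 1 and 3 for RELB, and 5 and 1 against 5 and 4 for NFKB2. The RELA counts of RPL5 did not overlap and were lower in knockdown, as held for 13.5% of all genes. Their knockdown value of 1 comes from a short list. RPL11 had 0 and 0 against 0 and 1 for RELA, 0 and 0 against 2 and 2 for RELB, and 2 and 4 against 0 and 2 for NFKB2. For RPL11 the RELB counts did not overlap between conditions and were lower in knockdown, as held for 25% of all genes. In knockdown 1 of the values of 0 comes from a short list. The NFKB2 counts of RPL11 met at 2 and were otherwise higher in knockdown. Its strongest peak, at −896 bp from its start site in control RELB replicate 1, had 7 fragments and a −log10 p of 5.04.

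RPS19 had 1 and 4 peaks in knockdown and 1 and 0 in control for RELA, 0 and 1 against 4 and 0 for RELB, and 9 and 9 against 4 and 4 for NFKB2. The NFKB2 counts did not overlap and were higher in knockdown, as held for 8.13% of all genes. For RPS19 the exact permutation test over all antibodies gave an unadjusted p of 0.0833. RPS6, the small subunit protein phosphorylated by S6 kinases, had 0 and 3 against 2 and 1 for RELA, 0 and 0 against 1 and 3 for RELB, and 3 and 1 against 2 and 2 for NFKB2. RPL23A, which sits at the exit of the peptide tunnel, had 0 peaks in all RELA libraries, 0 and 0 against 1 and 1 for RELB, and 1 and 0 against 1 and 2 for NFKB2. The RELB counts of RPS6 and RPL23A did not overlap between conditions, with 0 in both knockdown libraries, 1 of which is a short list. With RELB, knockdown lay wholly below control at 25% of all genes.

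FAU, which encodes a small subunit protein fused to a ubiquitin-like domain, had 0 peaks in all 12 libraries. The same was true of RPL7A, RPS18 and RPS25. Among their genes of like length, no peak in any library was seen in 12%, 10%, 4.5% and 7.5%. All 4 carry the pyrimidine tract, and their spans ran from 1505 to 4437 bp. RPL29 was called in control RELA replicate 2 and control RELB replicate 1 and RPS28 in control RELA replicate 1 and control RELB replicate 1, each with 1 peak. RPL32 had 1 peak in knockdown RELA replicate 2, control RELA replicate 1 and knockdown RELB replicate 2.

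Long members filled most libraries. RPS29, the longest at 27723 bp, had 0 and 2 peaks in knockdown and 5 and 5 in control for RELA, 2 and 3 against 3 and 4 for RELB, and 9 and 3 against 9 and 4 for NFKB2. RPS24 (22944 bp) had 0 and 3 peaks against 4 and 2 with the RELA antibody, 0 and 5 against 7 and 4 with RELB, and 7 and 4 against 3 and 3 with NFKB2. For RPS29 the RELA counts did not overlap between conditions, with the knockdown value of 0 from a short list. They were lower in knockdown, as held for 13.5% of all genes. The RELB and NFKB2 counts of RPS29 did overlap. RPL31 had 0 and 3 against 8 and 1 for RELA, 0 and 5 against 4 and 6 for RELB, and 3 and 4 against 5 and 4 for NFKB2. RPS9, RPL6 and RPL14 were each called in 11 libraries, with 31, 24 and 22 peaks in all. RPS9 is the shortest of these at 6790 bp, and its genes of like length averaged 6.715 libraries.

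Short members varied. RPL41, which encodes a very small protein and spans 1335 bp, and RPS27 (1394 bp) were each called in 6 libraries, with 8 and 7 peaks. RPL10L, the shortest at 772 bp, was called in 9, where its genes of like length averaged 3.76. It had 2 and 1 peaks in knockdown and 1 and 1 in control for RELA, 0 and 2 against 4 and 1 for RELB, and 3 and 1 against 0 and 0 for NFKB2. The other paralogues RPL3L, RPL39L, RPS27L and RPL36AL were called in 9, 9, 8 and 4 libraries. RPL3L is the muscle form of RPL3, RPL39L is a testis form of RPL39 and RPS27L is a p53 target.

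A promoter peak in at least 6 libraries was found for 9 members (13.6% of 66, against 10.9% of all promoters). They were RPLP1 with 10, RPS10 with 8 and RPLP0, RPL10L, RPL24, RPL39, RPS6, RPS19 and RPS24 with 6 each. Within 250 bp of the start site RPS10 had a peak in 6 libraries, RPLP1, RPLP0, RPL10L and RPS19 in 3, RPS6 in 2, RPL24 and RPL39 in 1 and RPS24 in 0. Outside these 9, and named after their values were seen, RPL27 reached 4 libraries in that window and RPL13, RPL21, RPL36A and RPL37A reached 3. RPS10 shares its start with the read-through gene RPS10-NUDT3. No promoter peak in any library was the case for 7 members (10.6%), against 7.61% of all promoters.

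**Figure D5:**
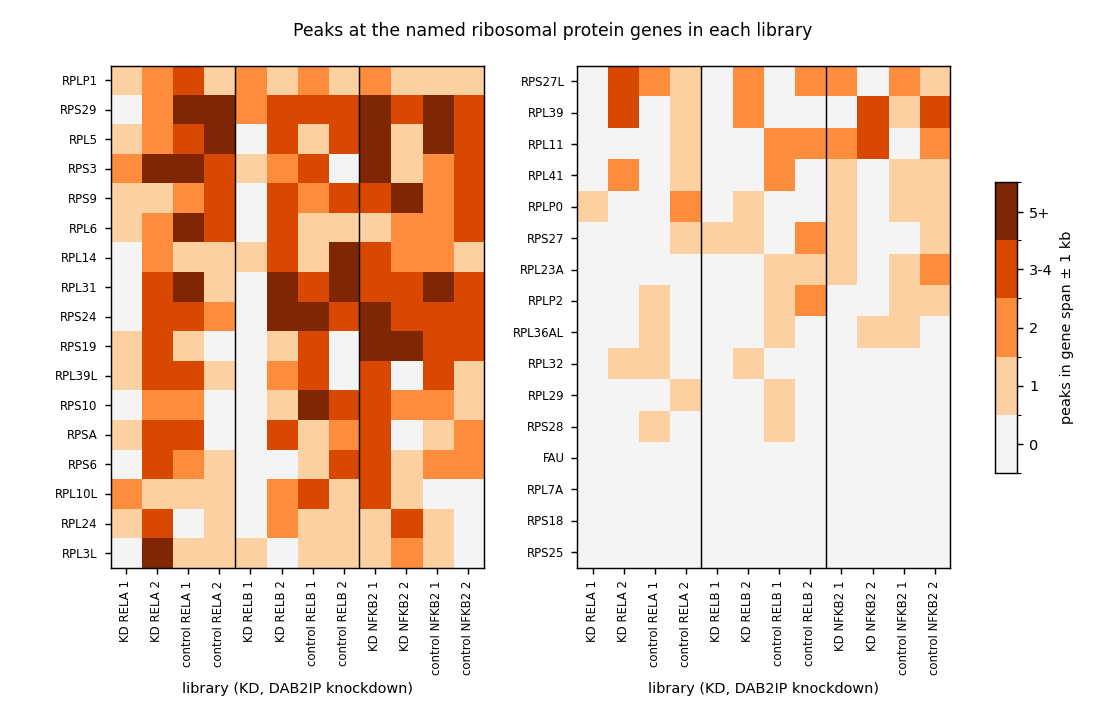
Number of peaks in the gene span with 1 kb (color) for 33 ribosomal protein genes described in the text (rows, ordered by libraries with a peak and then by total peaks) in each of the 12 libraries (columns; KD, DAB2IP knockdown). RPLP1 is filled in every column, FAU, RPL7A, RPS18 and RPS25 in none, and the columns for KD RELA 1 and KD RELB 1 are the emptiest.

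Peaks seldom recurred at the same place. Joined over libraries, the peaks at members formed 747 regions. A single library held 486 of these (65.1%), against 61.5% at all protein-coding genes, and at least 3 libraries held 91 (12.2%, against 16.3%). Regions in exactly 2 libraries numbered 170. In 46 of them (27.1%) the 2 libraries came from the same preparation and in 34 (20%) from the same antibody. At all genes these shares were 29.3% and 25.1%, and among all pairs of libraries 18.2% share a preparation and 27.3% an antibody. The most recurrent regions were held by 7 libraries, one in RPL31 at chr2:101012785-101013503 and one at RPL8. RPL5, RPLP1 and RPS9 had regions held by 6. Members with a peak for all 3 antibodies numbered 2 (2.41%, like length 4.95%) in knockdown preparation 1, 31 (37.3%, 28.6%) in knockdown preparation 2, 31 (37.3%, 32.2%) in control preparation 1 and 23 (27.7%, 29.7%) in control preparation 2.

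Knockdown was then compared with control within antibody, to ask whether DAB2IP loss went with NF-κB subunit peaks at these genes. For RELA 36.0 ± 29.7 members had a peak in knockdown and 49.0 ± 1.41 in control (SD, n = 2), a difference of −15.7 points. For RELB there were 31.0 ± 18.4 and 49.5 ± 3.54, a difference of −22.3 points, and for NFKB2 53.5 ± 2.12 and 55.5 ± 3.54, a difference of −2.41 points. The RELA and RELB values include the 2 short lists, and with 2 libraries against 2 an exact permutation test cannot give a p below 0.333. Measured against genes of like length in the same library, the knockdown libraries exceeded control by 0.651 points with the RELA antibody and by 1.69 with RELB, and with NFKB2 the difference was −2.84 points. The large differences for RELA and RELB were thus shared by genes of the same length.

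Members called in both libraries of one condition and neither of the other were few. For RELA there were 0 for knockdown (all genes 0.414%, like length 1.11%) and 1 for control (1.20% of members, all genes 2.95%, like length 6.89%). For RELB there were 0 for knockdown (all genes 0.379%, like length 0.892%) and 9 for control (10.8%, all genes 5.11%, like length 10.9%). The 9 were RPL10, RPL11, RPL12, RPL13, RPL21, RPL23A, RPL27, RPLP2 and RPS6. For NFKB2 there were 2 for knockdown, RPL10L and RPS12 (2.41%, all genes 1.45%, like length 3.83%), and 4 for control, RPL4, RPLP2, RPS21 and RPS4X (4.82%, all genes 1.34%, like length 3.76%). Those of these genes not described above are named only because they make up a count, after their values were seen. The share for RELB control was that of genes of like length, and it involves a short list. Splits that mix the conditions also occurred. Called in both replicate 2 libraries and neither replicate 1 library were 10 members for RELA (12.05%, like length 11.5%), 10 for RELB (12.05%, like length 6.51%) and 5 for NFKB2 (6.02%, like length 2.37%). The reverse split held 0, 3 and 1 members (like length 0.711%, 1.89% and 5.55%).

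The number of peaks at a gene often failed to overlap between the conditions, in genes at large as in members. With RELA, knockdown lay wholly below control at 6 members (7.23%, all genes 13.5%, like length 11.5%) and wholly above it at 0 (all genes 0.719%, like length 1.36%). With RELB it lay below at 11 members (13.3%, all genes 25%, like length 16.2%) and above at 0 (all genes 0.494%, like length 0.988%). Both antibodies have a short list in knockdown. With NFKB2 it lay below at 8 members (9.64%, all genes 14.6%, like length 9.21%) and above at 7 (8.43%, all genes 8.13%, like length 7.28%). RPS19, RPS24 and RPL10L were among the 7.

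Each gene's number of peaks, divided by the mean number per gene in that library, was compared over the 3 antibodies by a two-sided exact permutation test of condition labels within antibody (smallest possible p 0.00926). The test treats the 3 libraries of a preparation as separate, and with whole preparations as the units the smallest possible p would be 0.333. After Benjamini-Hochberg adjustment over all 20033 genes, 0 genes had a p under 0.05 (smallest adjusted p 0.476). Without adjustment, 0 members were higher in knockdown at p under 0.05, where 2.64% of all genes were, and 1 (1.20%) was lower, where 5.18% of all genes were. That member was RPLP2, with an exact p of 0.0278 (adjusted p 0.512), 0 of 6 knockdown libraries and 5 of 6 control libraries called. Without the 2 short lists its exact p was 0.0556, as it was without control RELA replicate 1 and without either knockdown RELB library. In the direction of the scaled difference 37 members were higher in knockdown, 42 lower and 4 equal. The scaling gives each peak of the 2 short knockdown lists more weight. By libraries with a peak, without scaling, 16 members were called in more knockdown than control libraries, 48 in fewer and 19 in as many. Neither split was counted over all genes. The median difference was −0.00157 for members and −0.00470 for all genes.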

How the data were processed

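ChIP-seq was carried out on 12 immunoprecipitation libraries and 4 inputs, with groups taken from the sample labels. The authors mapped paired-end reads to hg38 with BWA (0.7.12 per the labels) and called peaks per library with MACS2 (2.1.0), and the labels also list CASAVA 1.8 and DiffBind. Inputs have no list of their own. The deposited lists give start, end and summit positions in bp, a score (10 times the −log10 p-value), the fold enrichment ratio at the summit, and −log10 p-values and −log10 q-values. The threshold was an unadjusted p of 0.05. Fragments at the summit were recovered from fold and p.

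Members and gene lists were chosen with earlier results of these data known. A gene counted as called when a peak overlapped its RefSeq GRCh38 span with 1 kb by at least 1 bp, after 563 repeated intervals were removed. Named members were RPLP0, RPLP1, RPLP2, RPSA, FAU, RPS3, RPL5, RPL11, RPS19, RPS6, RPL23A, the 8 with the most and 8 with the fewest libraries called, the 3 longest and 3 shortest, those with a promoter peak in 6 libraries or more or with p under 0.05, and the paralogues. Some members that this rule or a count would name are not reported singly here. Differences are mean ± SD over libraries. Alternatives were other flanks, windows, thresholds, length matches, a replicate block, and leaving out libraries. Python 3.11.15, numpy 2.4.6, pandas 2.3.3 and scipy 1.17.1 were used, and scripts were tested on simulated data. Start sites came from a RefSeq GRCh38.p14 promoter table, which held 66 members.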

Additional observations from a re-analysis of the deposited data

Results flagged for a closer look

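The share of ribosomal protein genes with a peak, less that of genes of like length in the same library, moved in opposite directions with DAB2IP knockdown for RELB and NFKB2. For RELB both knockdown libraries (5.36 and 5.30 points) lay above both control libraries (3.48 and 3.78 points). For NFKB2 both knockdown libraries (4.37 and 3.52 points) lay below both control libraries (5.10 and 8.48 points). Knockdown minus control differed between these antibodies by 4.53 points. For RELA the knockdown libraries (−1.10 and 5.43 points) and the control libraries (6.70 and −3.67 points) overlapped, and replicates of the control group differed by more than 4.53 points. The difference between RELB and NFKB2 was not tested, 1 of the RELB knockdown libraries is a short list, and 1 member corresponds to over 1 point.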

How the results depend on the processing

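The excess of members over genes of like length (3.89 points) kept its sign under every alternative run but not its size: 1.60 with no flank, 1.94 with a flank of 5 kb and 1.44 at a p of at most 0.001, against 3.48 to 4.58 points when 1 library was left out. The mean share of members with a peak (55.1%) was 73.2% with a flank of 5 kb, 12.6% for peaks with a p of at most 0.001 and 0 for a q of at most 0.05, and 53.8% to 58.5% without 1 library. The promoter difference (−0.0315 points) had no stable sign: 0.180 at 250 bp, 0.202 at a p of at most 0.001, 0.137 without the paralogues, −2.61 at 5 kb, −0.905 without the 2 short lists (chosen after seeing the data), and −0.653 to 0.644 without 1 library.

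Knockdown minus control for RELA (−15.7 points) was 0.651 relative to genes of like length, and −41.0 to 9.64 without 1 library, positive without knockdown replicate 1. For RELB (−22.3) it was 1.69 relative to like length, −1.81 at a p of at most 0.001, and −38.0 to −6.63 without 1 library. For NFKB2 (−2.41) it was 3.01 at a p of at most 0.001 and −5.42 to 0.602 without 1 library, positive without control replicate 1.

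Over all genes, same-numbered knockdown and control libraries correlated at −0.0654 (RELA), 0.0290 (RELB) and 0.0578 (NFKB2) in their deviations. The labels do not say whether same-numbered libraries were handled together. With 2 libraries per group and peaks of few fragments, these values cannot settle it. With the replicate block, 321 genes were higher in knockdown (529 without it) and 0 members were lower (1 without it). Counting peaks as present or absent gave 1 gene higher and 64 lower (1038 as reported). Without the 2 short lists, an alternative chosen after seeing the data, 488 genes were lower, 2 members higher and 0 lower. Without a flank, 1 member was higher and 0 lower. Without 1 library, all genes gave 283 to 792 higher and 805 to 1198 lower, and members 0 to 2 higher and 0 to 3 lower. For RPLP2 the exact p ranged from 0.00926 without control RELA replicate 2 to 0.0833 without a flank, and was 0.0625 with the replicate block. The cause of these changes was not tested. Read totals were not used here, so how far depth limits these counts was not tested, and 43.4% of member peaks rest on 3 or fewer fragments.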

Other observations

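The human genome holds many processed pseudogenes of ribosomal protein genes, whose reads can be hard to place. RefSeq names 1975 after 78 of the members, with 137 for RPL21 alone. On average over the 12 libraries 37.3% ± 14.1 of them had a peak, against 36.9% ± 14.1 of other pseudogenes of like length, a difference of 0.363 ± 1.77 points (SD, n = 12) with 5 libraries above.

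By promoter G+C, members between 50% and 60% had promoter peaks in a mean of 3.79 libraries (24 genes) and those between 60% and 70% in 2.93 (30 genes). All promoters in these ranges averaged 3.03 and 2.91 libraries. Members between 40% and 50% averaged 2.38 (8 genes), where all such promoters averaged 3.51. Among all promoters, those under 40% G+C had the highest mean, 3.96 libraries.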
